A study of Homo sapiens with 2 samples.

Results

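The liver makes most of the proteins that circulate in plasma, and 47 of their genes were examined here: carriers, acute-phase and metal-binding proteins, heavy chains of the inter-alpha-trypsin inhibitor, complement proteins, serpins, and proteins of coagulation and fibrinolysis. They were chosen by name from the known roles of their products, and each was matched by its Entrez gene identifier in both libraries. All 47 were found among 27685 genes. RNA was sequenced from cells of the human hepatocellular carcinoma line PLC/PRF/5, which is an established line, after 24 h with 6 µM JIB-04, an inhibitor of Jumonji histone demethylases, or with DMSO, its solvent. Each condition had 1 library, and both came from the same line with no other difference in the labels. One label calls the control cells untreated, whereas the title of that library names DMSO. The comparison asks how the transcripts of the secretory program of hepatocytes stood in JIB-04-treated cells beside DMSO-treated cells.

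Hepatocytes secrete plasma proteins in very unequal amounts, and albumin is the most abundant of them in blood. Complement is a cascade of proteases and binding proteins that marks microbes and damaged cells, with C3 at its center. Coagulation is a second protease cascade that ends when thrombin cuts fibrinogen into fibrin, and serpins restrain proteases of both cascades. The values given here are those of mRNA and not of secreted protein.

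Levels are TPM, the length-corrected share of a gene's transcripts per 1000000 transcripts, summed over the annotated transcripts of a gene. The aligned fragments were estimated at 23721989 with JIB-04 and 28187793 with DMSO. A gene was described where it had at least 1 TPM in either library, which held for 14450 genes. Its log2 ratio is the log2 of TPM + 1 in JIB-04-treated cells over TPM + 1 in DMSO-treated cells, and the added 1 understates the difference of weakly expressed genes. The median log2 ratio of all described genes was -0.15. With 1 library per condition no difference has a replicate check and no test was possible. The 95% intervals are exact binomial intervals of the estimated fragments, so they cover counting error only and leave out the spread between cultures. In bulk RNA, fewer cells with a transcript and less of it per cell cannot be told apart. Of the marker genes, AFP of fetal liver and hepatoma stood at 151 TPM in JIB-04-treated cells and 131 TPM in DMSO-treated cells, and the hepatocyte regulator HNF4A stood at 72.3 TPM with JIB-04 and 71.9 TPM with DMSO. The 12 hepatocyte and hepatoma markers summed to 4459 TPM with JIB-04 and 8085 TPM with DMSO, and KRT18, a keratin of epithelial cells, made up 2214 TPM of this sum with JIB-04 and 4484 TPM with DMSO. The part of this difference in the values of the plasma protein genes was not tested. The 7 endothelial markers summed to 1.47 TPM with JIB-04 and 1.60 TPM with DMSO, and 4 of them were at 0 in each library. The 8 leukocyte and Kupffer cell markers summed to 182 TPM with JIB-04 and 161 TPM with DMSO, of which CD68 and LYZ held most, and 3 were at 0 in each library. The 7 stellate cell and fibroblast markers summed to 14.2 TPM with JIB-04 and 22.1 TPM with DMSO. For the 5 cholangiocyte markers the sums were 61.8 TPM with JIB-04 and 56.4 TPM with DMSO.

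Expression of the plasma protein genes was concentrated in a few genes and was close in both libraries as a sum. The 47 genes summed to 8147 TPM in JIB-04-treated cells and 8302 TPM in DMSO-treated cells, which is 0.815% of all transcripts with JIB-04 and 0.830% with DMSO. The 5 most abundant, FGA, FGG, C3, FGB and VTN, held 85.1% of this sum with JIB-04 and 85.7% with DMSO. In all, 34 of the 47 genes were described, 8 were above 0 but under 1 TPM in both libraries, and 5 were listed at 0 in both libraries. The genes listed at 0 were HP, C4BPA, F11, PLG and KLKB1. The files hold no read counts, and 1 of 83 ribosomal protein genes was also listed at 0 in each library, so a listed 0 is given only as that.

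**Figure D1:**
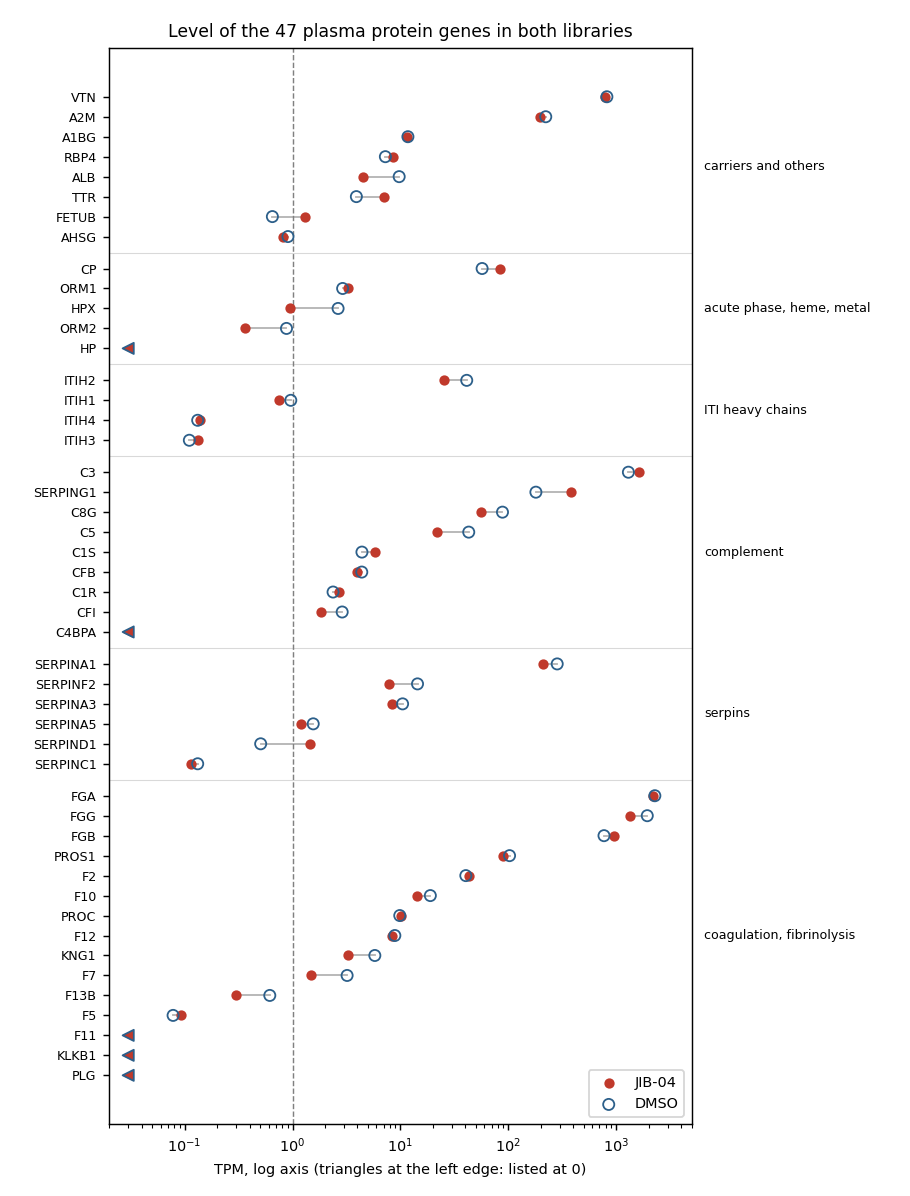
TPM of each of the 47 genes on a log axis, with a filled red point for the JIB-04 library, an open blue circle for the DMSO library and triangles for genes listed at 0. FGA is at 2206 TPM with JIB-04 and 2282 TPM with DMSO at the top of the range, and the 5 genes at the left edge are HP, C4BPA, F11, KLKB1 and PLG.

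SERPING1 alone was past 2-fold. Of the 34 described genes, 1 was at least 2-fold higher with JIB-04, where 5.99% of all described genes were, and 0 were at least 2-fold lower, where 6.88% of all described genes were. Among all genes this is 865 higher and 994 lower, and it is 1135 higher and 627 lower after centering, that is, when the median log2 ratio of genes with at least 10 TPM in both libraries is taken as 0. The median log2 ratio of the 34 genes was -0.10, with quartiles at -0.51 and 0.18, beside quartiles at -0.51 and 0.25 for all described genes. Of the 34, 13 were above 0 and 21 below 0, and the counting interval lay above 0 in 7, below 0 in 17 and across 0 in 10. This split is near that of all described genes, of which 5739 were above 0 and 8711 (60.3%) below 0, with intervals above 0 in 4000 and below 0 in 6671. After centering, 18 of the 34 were above 0 and 16 below 0. A ratio within 1.5-fold was found for 23 genes (67.6%), beside 66.2% of all described genes. With a pseudocount of 0.1 in place of 1 the counts were 2 higher and 3 lower, where 8.03% and 9.94% of all genes were. SERPING1 lay just inside the threshold of 2-fold at a log2 ratio of 1.06 and ALB just outside at -0.96.

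**Figure D2:**
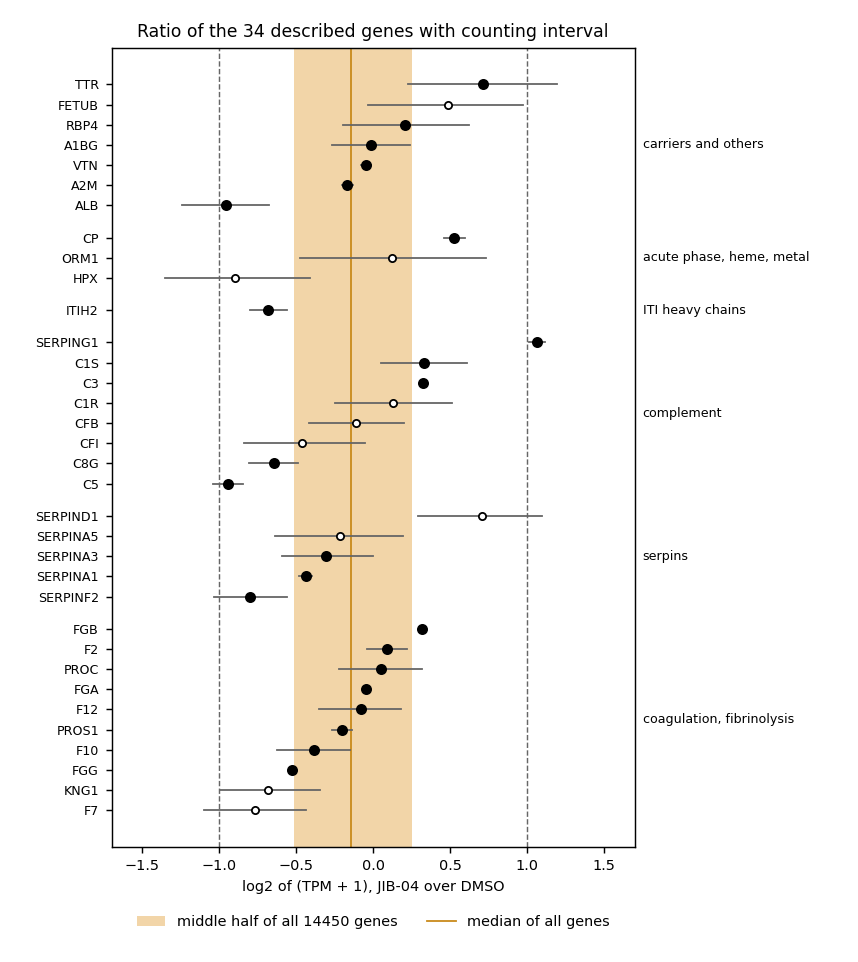
Log2 ratio of TPM + 1, JIB-04 over DMSO, of the 34 described genes with 95% counting intervals as bars, filled points for a mean of at least 5 TPM and open points below it. SERPING1 at 1.06 is the 1 point beyond the dashed 2-fold lines, and the points of A1BG, VTN, CFB, F12 and FGA just below 0 lie above 0 after centering on the median of well expressed genes.

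Many promoters of these genes hold a short sequence that few other promoters hold, and some are shown because genes with the same letters close to the start stood at very different levels. RefSeq windows of 250 bases before the transcription start (GRCh38.p14) were matched for 35 of the 47 genes, and no window was matched for A2M, C1S, C3, C8G, CP, HP, ITIH2, ORM2, SERPINC1, SERPINF2, SERPING1 and TTR. The letters GTTAAT, an arm of the palindromic element bound by the liver factors of the HNF1 family, stood on either strand in 12 of the 35 (34.3%), beside 7.50% of 27305 genes with a window of the same length. These 12 were ALB, C1R, C4BPA, C5, CFI, F13B, F2, FGA, FGB, KLKB1, PLG and SERPINA1. The last 100 bases before the start of 7 of them follow, with GTTAAT, or ATTAAC where the match is on the other strand, in capitals.
FGA: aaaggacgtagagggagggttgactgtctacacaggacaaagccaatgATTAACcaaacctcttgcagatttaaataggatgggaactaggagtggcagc
FGB: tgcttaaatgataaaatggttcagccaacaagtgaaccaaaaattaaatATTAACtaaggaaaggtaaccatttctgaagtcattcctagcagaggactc
SERPINA1: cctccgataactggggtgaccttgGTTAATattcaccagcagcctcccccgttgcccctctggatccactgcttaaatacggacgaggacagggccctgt
ALB: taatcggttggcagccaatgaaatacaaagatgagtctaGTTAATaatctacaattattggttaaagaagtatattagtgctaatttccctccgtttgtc
C5: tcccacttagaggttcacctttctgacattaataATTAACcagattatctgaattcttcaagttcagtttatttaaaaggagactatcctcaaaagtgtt
C4BPA: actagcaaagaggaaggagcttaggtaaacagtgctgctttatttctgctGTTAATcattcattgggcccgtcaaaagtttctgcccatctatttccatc
PLG: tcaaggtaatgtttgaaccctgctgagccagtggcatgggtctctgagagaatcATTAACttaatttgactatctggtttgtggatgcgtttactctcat
The windows lie, in the same order, at chr4:154590743-154590842 on the minus strand, chr4:154562880-154562979 on the plus strand, chr14:94388603-94388702 on the minus strand, chr4:73404187-73404286 on the plus strand, chr9:121050276-121050375 on the minus strand, chr1:207104133-207104232 on the plus strand and chr6:160702144-160702243 on the plus strand of GRCh38.p14. The capitals begin 52 bases before the start in FGA, 51 in FGB, 76 in SERPINA1, 61 in ALB, 66 in C5, 50 in C4BPA and 46 in PLG. The levels of these 7 genes ran from 0 TPM in both libraries for C4BPA and PLG to 2206 TPM with JIB-04 and 2282 TPM with DMSO for FGA. Of the 12 genes with the letters, 8 were described with a median log2 ratio of -0.24, and of the 23 without them 17 were described with a median of -0.11, and none of either set was past 2-fold.

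Other letters searched on both strands gave the following shares. The looser C/EBP form TTNNGNAAT stood in 31.4% of the 35 genes and in 11.9% of all genes, and the STAT form TTCNNNGAA in 31.4% and 8.09%. ACGTG, the core of the hypoxia response element, stood in the window of 1 of the 35 genes, KNG1 (2.86%), and in 21.7% of all genes. TATAAA, the letters of the TATA box, stood in 5 of the 35 genes (14.3%) and in 3563 of the 27305. CAAAGTCCA and AGGNCAAAG, both forms of the HNF4 element, stood in 2.86% and 5.71% of the 35 genes, beside 0.403% and 1.71% of all genes. The stricter C/EBP form TTGCGNAA was in 0 of the 35 windows and in 0.923% of all genes, and the full HNF1 palindrome, which contains GTTAAT on both strands, was in 0 of the 35. The windows were not matched for base composition, and a match is a description of letters only.

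Among the carriers, ALB was lower and TTR higher with JIB-04, and the abundant VTN and A2M differed little. VTN encodes vitronectin, an adhesive glycoprotein that binds the complement attack complex, and stood at 794 TPM in JIB-04-treated cells and 820 TPM in DMSO-treated cells. Its log2 ratio was -0.05 (interval -0.08 to -0.01) and had the opposite sign after centering. A2M, the broad protease trap alpha-2-macroglobulin, stood at 198 TPM with JIB-04 and 222 TPM with DMSO, a log2 ratio of -0.17 (-0.21 to -0.13) that was above 0 when its most abundant transcript was taken alone. ALB, the gene of albumin, was at only 4.53 TPM with JIB-04 and 9.74 TPM with DMSO, from an estimated 104 fragments with JIB-04 and 271 with DMSO, and its log2 ratio was -0.96 (-1.24 to -0.68). In these cells VTN transcripts were 175 times as abundant as those of ALB with JIB-04 and 84.2 times with DMSO. TTR, the thyroxine and retinol-binding protein carrier transthyretin, stood at 7.06 TPM with JIB-04 and 3.91 TPM with DMSO, a log2 ratio of 0.72 (0.23 to 1.19) from 64 fragments with JIB-04 and 43 with DMSO. Its partner RBP4, which carries retinol, stood at 8.51 TPM with JIB-04 and 7.26 TPM with DMSO with a log2 ratio of 0.20 (-0.20 to 0.62), an interval that spans 0, and 1.13 when its most abundant transcript was taken alone. A1BG, a plasma glycoprotein of the immunoglobulin superfamily, was at 11.6 TPM with JIB-04 and 11.7 TPM with DMSO, a log2 ratio of -0.01 (-0.27 to 0.24) whose sign also turned after centering. Its coverage lay almost wholly in its last 2 exons, with 0.196 with JIB-04 and 0.121 with DMSO in the first part of its exonic bases and 34.4 with JIB-04 and 34.9 with DMSO in the last part on the TPM scale, so the value does not describe a transcript covered along its length. The fetuins lie side by side with KNG1 on chromosome 3 and were weak. FETUB stood at 1.31 TPM with JIB-04 and 0.651 TPM with DMSO, from 21 fragments with JIB-04 and 11 with DMSO, and AHSG was under 1 TPM at 0.808 with JIB-04 and 0.908 with DMSO.

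CP was the 1 abundant gene of the acute-phase, heme and metal-binding class. It encodes ceruloplasmin, the copper-carrying ferroxidase of plasma, and stood at 82.9 TPM in JIB-04-treated cells and 57.2 TPM in DMSO-treated cells, a log2 ratio of 0.53 (0.46 to 0.60). HPX, the heme scavenger hemopexin, stood at 0.954 TPM with JIB-04 and 2.64 TPM with DMSO, a log2 ratio of -0.90 (-1.36 to -0.41) from 15 fragments with JIB-04 and 51 with DMSO. Haptoglobin, which binds free hemoglobin, was listed at 0 in both libraries. The orosomucoid genes ORM1 and ORM2 are near-identical neighbors whose reads can be split between them, so their values are uncertain. ORM1 stood at 3.26 TPM with JIB-04 and 2.92 TPM with DMSO and ORM2 at 0.360 TPM with JIB-04 and 0.879 TPM with DMSO. The class thus held a higher CP and a lower HPX with JIB-04, at levels far apart.

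Of the inter-alpha-trypsin inhibitor heavy chains, some of which are attached to hyaluronan in the extracellular matrix, only ITIH2 was described. ITIH2 on chromosome 10 stood at 25.3 TPM with JIB-04 and 41.2 TPM with DMSO, a log2 ratio of -0.68 (-0.80 to -0.56). The neighboring ITIH1, ITIH3 and ITIH4 on chromosome 3 were all under 1 TPM. ITIH1 was at 0.744 TPM with JIB-04 and 0.964 TPM with DMSO, ITIH3 at 0.134 TPM with JIB-04 and 0.111 TPM with DMSO, and ITIH4 at 0.138 TPM with JIB-04 and 0.132 TPM with DMSO. All 21 exonic segments of ITIH2 lay lower with JIB-04.

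The complement class held the widest differences and both directions. SERPING1 encodes the C1 inhibitor, the serpin that blocks C1r, C1s, plasma kallikrein and factor XIIa, and lies on chromosome 11 of hg19 from 57365027 to 57382326. It stood at 378 TPM in JIB-04-treated cells and 180.3 TPM in DMSO-treated cells, from an estimated 7292 fragments with JIB-04 and 4213 with DMSO. Its log2 ratio was 1.06 (1.01 to 1.12), and its rank among genes by TPM was 389 with JIB-04 and 1013 with DMSO. The proteases it inhibits in the C1 complex are encoded by C1R and C1S, neighbors on chromosome 12, and were weak in both libraries. C1S stood at 5.78 TPM with JIB-04 and 4.40 TPM with DMSO with a log2 ratio of 0.33 (0.05 to 0.61), and C1R at 2.69 TPM with JIB-04 and 2.38 TPM with DMSO with an interval across 0 (-0.25 to 0.51).

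C3 and C5, which are related in sequence and cut in turn by the convertases, lay on opposite sides of 0. C3 stood at 1624 TPM in JIB-04-treated cells and 1298 TPM in DMSO-treated cells, a log2 ratio of 0.32 (0.31 to 0.34), and was the most abundant complement gene of the class in both. C5 stood at 21.9 TPM with JIB-04 and 43.0 TPM with DMSO, a log2 ratio of -0.94 (-1.04 to -0.84). C3 transcripts were thus 74.3 times as abundant as C5 transcripts with JIB-04 and 30.2 times with DMSO. C8G, the gamma chain of the C8 component of the attack complex, stood at 56.0 TPM with JIB-04 and 88.3 TPM with DMSO, a log2 ratio of -0.65 (-0.81 to -0.49). The chains it joins were near or at 0, with C8A at 0.279 TPM with JIB-04 and 0.245 TPM with DMSO and C8B listed at 0. CFB, the protease of the alternative pathway, stood at 3.97 TPM with JIB-04 and 4.38 TPM with DMSO, a difference whose sign turned after centering, and CFI, which inactivates C3b, at 1.82 TPM with JIB-04 and 2.89 TPM with DMSO with a log2 ratio of -0.46 (-0.84 to -0.06). C4BPA, the alpha chain of the C4b-binding protein, was listed at 0.

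Coverage along the transcripts showed where in a gene the libraries differed. Segments are stretches of exon of at least 20 bases that belong to every annotated transcript with a level above 0, and their coverage was summed over transcripts and put on the TPM scale. In 12 of the 24 genes with a mean of at least 5 TPM all such segments lay in 1 direction. This is close to the share among 3096 genes with a single transcript, at least 4 exons and the same mean, of which 50.2% had all exons in 1 direction, 17.9% higher and 32.3% lower. The 5 with all such segments higher were C3 with 41 of 41 segments, CP with 16, FGB with 8, SERPING1 with 7 and TTR with 4. In CP the last exon of the main transcript NM_000096 (1228 bases), which is not in both transcripts, stood at 34.9 with JIB-04 and 38.3 with DMSO. The 7 with all such segments lower were ITIH2, C5 with 19 segments, PROS1 with 15, FGG with 9, SERPINF2 with 8, C8G with 7 and SERPINA1 with 4. In SERPING1 the log2 ratio of the segments ran from 0.67 to 1.18, so each of its segments was higher with JIB-04.

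**Figure D3:**
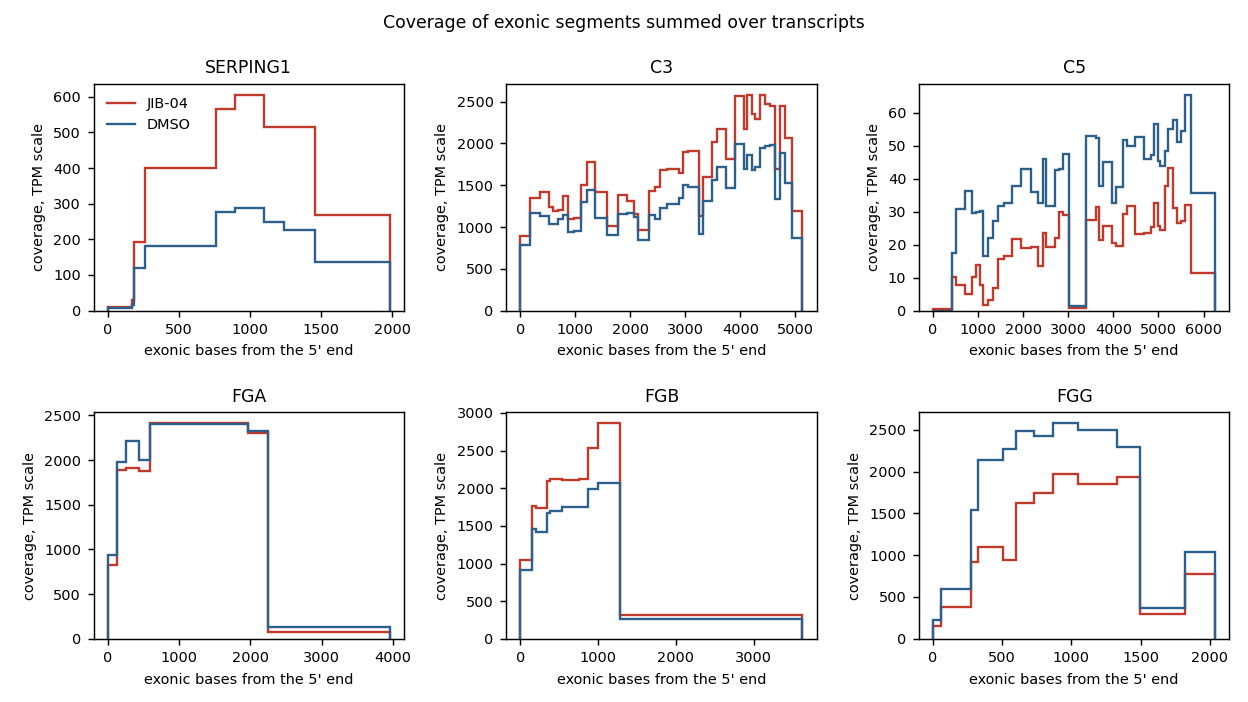
Coverage on the TPM scale along the exonic bases of 6 genes, counted from the 5′ end, with JIB-04 in red and DMSO in blue. The red line is above the blue one along SERPING1, C3 and FGB, the lines of FGA nearly coincide over most of its length, and the gap in C5 and FGG is wider on the log scale near the 5′ end (C5 log2 ratio -1.92 in the first part of the segments its transcripts share and -0.81 in the last). In C5 the gap is wide again in the last exon (log2 ratio -1.57). In FGA the last 1708 of 3956 bases, where both lines are low, stood at 80.6 with JIB-04 and 135 with DMSO (log2 ratio -0.74).

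C5, FGG and SERPINA1 stood out by position, and were singled out after their values were seen. The bases in the segments of each gene were split into 3 equal parts from the 5′ end, and the log2 ratio of the last part was subtracted from that of the first. Over 1628 genes with a single transcript, at least 6 exons and a mean of at least 20 TPM the median of this difference was 0.01, with quartiles at -0.12 and 0.18, and over the 24 genes it was -0.03. In C5, whose transcripts share only segments of the 5′ portion, the first part stood at 6.85 with JIB-04 and 28.7 with DMSO on the TPM scale, a log2 ratio of -1.92, and the last part at 21.6 with JIB-04 and 38.5 with DMSO, a log2 ratio of -0.81. The difference of -1.12 is one that 0.123% of the 1628 genes fell below. Those genes were split over their whole transcripts, so for C5 this sets unlike stretches side by side. The last exon of C5 (533 bases), outside the shared segments, stood at 11.4 with JIB-04 and 35.8 with DMSO, a log2 ratio of -1.57. In FGG the first part was also the lower one, with a log2 ratio of -0.90 in the first part and -0.36 in the last, a difference of -0.54 that 1.23% of the 1628 genes fell below. SERPINA1 had the reverse pattern. Its last segment, the 3′ terminal exon (chromosome 14 of hg19, 94843084 to 94844977, 1894 bases) stood at 19.1 with JIB-04 and 81.6 with DMSO, a log2 ratio of -2.04, whereas the segments before it lay between -0.30 and -0.21. In SERPING1 the first and last parts had log2 ratios of 1.09 and 1.02.

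SERPING1 is itself a serpin and is described with complement. Of the 5 other described serpins 4 had a log2 ratio below 0, and SERPIND1 was above 0. SERPINA1, alpha-1-antitrypsin and the main plasma inhibitor of neutrophil elastase, stood at 209 TPM in JIB-04-treated cells and 284 TPM in DMSO-treated cells, a log2 ratio of -0.44 (-0.48 to -0.39), of which the last segment above is a part. SERPINF2, the plasmin inhibitor alpha-2-antiplasmin, stood at 7.86 TPM with JIB-04 and 14.4 TPM with DMSO, a log2 ratio of -0.80 (-1.03 to -0.56) that was -0.08 when its most abundant transcript was taken alone. Its target plasmin comes from PLG, which was listed at 0. SERPINA3, alpha-1-antichymotrypsin, stood at 8.30 TPM with JIB-04 and 10.5 TPM with DMSO, a log2 ratio of -0.30 (-0.60 to -0.0041) whose interval ends close to 0. SERPIND1, the thrombin inhibitor heparin cofactor II, stood at 1.46 TPM with JIB-04 and 0.507 TPM with DMSO, from 32 fragments with JIB-04 and 13 with DMSO, a log2 ratio of 0.71 (0.29 to 1.09). SERPINA5, which inhibits activated protein C, stood at 1.20 TPM with JIB-04 and 1.56 TPM with DMSO with an interval across 0 (-0.63 to 0.19). SERPINC1, antithrombin, was at 0.116 TPM with JIB-04 and 0.132 TPM with DMSO. The genes SERPINA1, SERPINA3 and SERPINA5 lie in 1 cluster on chromosome 14, and all had ratios below 0, although the interval of SERPINA5 spans it.

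The fibrinogen genes were the most abundant of the coagulation class and differed from one another. They lie together on chromosome 4 of hg19, FGB from 155484132, FGA from 155504278 and FGG from 155525286, and their products join in equal numbers into 1 protein. FGA, the alpha chain, stood at 2206 TPM in JIB-04-treated cells and 2282 TPM in DMSO-treated cells, a log2 ratio of -0.05 (-0.07 to -0.03) that was above 0 after centering. FGB, the beta chain, stood at 961 TPM with JIB-04 and 771 TPM with DMSO, a log2 ratio of 0.32 (0.30 to 0.34). FGG, the gamma chain, stood at 1349 TPM with JIB-04 and 1941 TPM with DMSO, a log2 ratio of -0.53 (-0.55 to -0.50). In TPM, FGG stood at 1.40 times FGB with JIB-04 and 2.52 times with DMSO. These ratios depend on the last FGB segment, 2345 of 3628 bases, with a coverage of 316 with JIB-04 and 269 with DMSO. The highest segment of FGB stood at 2863 with JIB-04 and 2066 with DMSO, and that of FGG at 1967 with JIB-04 and 2577 with DMSO. With JIB-04 the ratio in TPM thus does not settle which of the 2 genes had more transcripts. The 3 genes summed to 4516 TPM with JIB-04 and 4994 TPM with DMSO. FGB was higher and FGG lower in every segment compared, whereas in FGA 1 of 5 segments lay above 0.

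The remaining coagulation genes were within 2-fold in the ratio of TPM + 1, although F7 was past it with a pseudocount of 0.1. Prothrombin, encoded by F2, stood at 43.0 TPM in JIB-04-treated cells and 40.4 TPM in DMSO-treated cells, a log2 ratio of 0.09 (-0.04 to 0.22). F10 and F7, neighbors on chromosome 13 that encode the vitamin K-dependent proteases of the tissue factor pathway, both had intervals below 0. F10 stood at 14.2 TPM with JIB-04 and 18.9 TPM with DMSO, a log2 ratio of -0.39 (-0.63 to -0.15), and F7 at 1.47 TPM with JIB-04 and 3.21 TPM with DMSO, a log2 ratio of -0.77 (-1.10 to -0.43). F12, the contact factor that SERPING1 inhibits once active, stood at 8.34 TPM with JIB-04 and 8.88 TPM with DMSO, a log2 ratio of -0.08 (-0.35 to 0.18) whose sign turned after centering. KNG1, the kininogen from which bradykinin is released, stood at 3.24 TPM with JIB-04 and 5.79 TPM with DMSO, a log2 ratio of -0.68 with an interval below 0. KLKB1 (prekallikrein) and its neighbor F11 were listed at 0.

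Of the genes of the protein C anticoagulant pathway, PROS1, PROC and PROCR were expressed in both libraries and THBD was under 1 TPM. PROCR stood at 15.9 TPM with JIB-04 and 16.4 TPM with DMSO, and THBD at 0.705 TPM with JIB-04 and 0.577 TPM with DMSO. PROS1, protein S, the cofactor of activated protein C, stood at 89.0 TPM with JIB-04 and 103 TPM with DMSO, a log2 ratio of -0.20 (-0.27 to -0.14) that was -2.39 when its most abundant transcript was taken alone. PROC, protein C, stood at 10.2 TPM with JIB-04 and 9.87 TPM with DMSO with a log2 ratio of 0.05 (-0.22 to 0.32). Their substrate factor V was weak, with F5 at 0.0926 TPM with JIB-04 and 0.0782 TPM with DMSO. F13B, the carrier subunit of the fibrin-crosslinking factor XIII, was at 0.300 TPM with JIB-04 and 0.616 TPM with DMSO.

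Transcript shares differed more than gene levels in several genes, although they are estimates by the assembler over transcripts that share most of their bases. Of 14 genes with several annotated transcripts and a mean of at least 5 TPM, the share of a transcript differed by over 20 percentage points in A2M, F10, PROS1, RBP4 and SERPINF2. In PROS1, NM_000313 held 79.8% of the gene's TPM with JIB-04 and 4.12% with DMSO, and NM_001314077, which has 1 more exon, held 20.2% with JIB-04 and 95.9% with DMSO. The extra exon of PROS1 (hg19, 93647546 to 93647641, 96 bases) had a coverage of 4.73 with JIB-04 and 17.0 with DMSO on the TPM scale, beside 84.1 with JIB-04 and 95.2 with DMSO in the segment that follows it, so in the DMSO library its coverage was far below what the estimated share of 95.9% would give. In A2M, NM_000014 held 99.98% with JIB-04 and 57.1% with DMSO. Likewise, RBP4 had 100% with JIB-04 and 46.1% with DMSO in NM_006744, and SERPINF2 had 100% with JIB-04 and 58.3% with DMSO in NM_000934. In the DMSO library the first exon of NM_001323517, the other RBP4 transcript at 53.9%, had a coverage of 0.484, beside 1.79 in that of NM_006744. In SERPINF2 the first exon of NM_001165920, at 41.6%, had 0.313 with DMSO, beside 4.19 in that of NM_000934. Both coverages were below what the estimated shares would give. The fibrinogen transcripts kept their order. FGG split into NM_000509 at 749.7 TPM with JIB-04 and 1018 TPM with DMSO and NM_021870, which encodes the gamma-prime chain, at 599 TPM with JIB-04 and 923 TPM with DMSO, and FGA had 96.0% with JIB-04 and 95.5% with DMSO in NM_021871. The 321 bases found only in NM_021870 had a coverage of 296 with JIB-04 and 368 with DMSO. The last exon of NM_000509 had 779 with JIB-04 and 1044 with DMSO, so the estimated TPM of NM_021870 was high beside its own coverage.

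**Figure D4:**
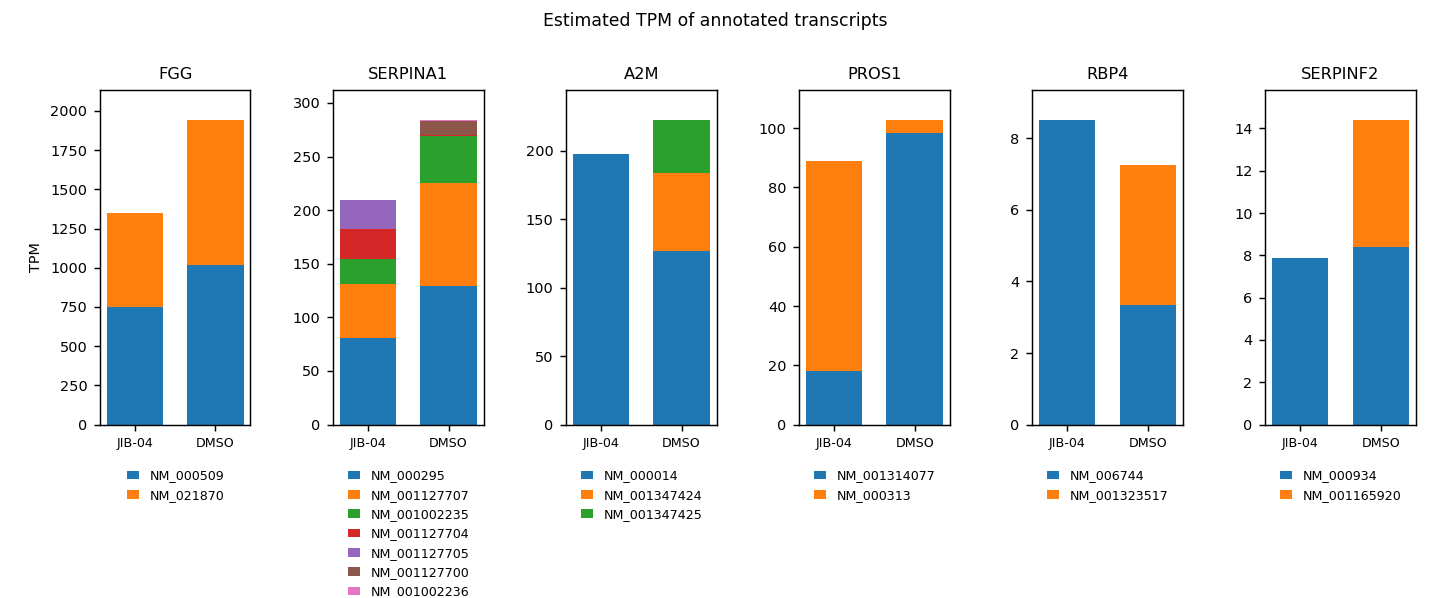
Estimated TPM of the annotated RefSeq transcripts of 6 genes, stacked, with JIB-04 as the left bar and DMSO as the right bar in each panel and each axis starting at 0. FGG holds both transcripts in both libraries, while the leading transcript of PROS1 is NM_000313 with JIB-04 (79.8%) and NM_001314077 with DMSO (95.9%).

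Other genes of the same systems, from lists written from general knowledge, included log2 ratios of up to 2.31, beside 1.06 for the 47 genes. Of 35 other complement genes 9 were described, with a median log2 ratio of 0.12. Of these, 1 was at least 2-fold higher, where 5.99% of all described genes were, and 0 were lower, where 6.88% were. The 1 was CD55, the membrane inhibitor of the C3 convertases, at 16.9 TPM in JIB-04-treated cells and 3.11 TPM in DMSO-treated cells, a log2 ratio of 2.12 (1.87 to 2.37). CFD, the serine protease that activates factor B, stood at 37.6 TPM with JIB-04 and 23.0 TPM with DMSO. C1QBP, a mitochondrial protein that binds C1q, stood at 145 TPM with JIB-04 and 290 TPM with DMSO with a log2 ratio of -0.99, and the C5a receptor C5AR1 at 5.34 TPM with JIB-04 and 7.18 TPM with DMSO.

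Of 25 other genes of coagulation and fibrinolysis 19 were described, with a median log2 ratio of 0.08. Of these, 4 were at least 2-fold higher, where 5.99% of all described genes were, and 1 at least 2-fold lower, where 6.88% were. F3, the tissue factor that starts coagulation with the product of F7, stood at 104 TPM with JIB-04 and 20.2 TPM with DMSO, a log2 ratio of 2.31 (2.18 to 2.44). PLAUR, the urokinase receptor, stood at 47.5 TPM with JIB-04 and 11.1 TPM with DMSO, a log2 ratio of 2.01 (1.79 to 2.22). The other genes past 2-fold upward, named after their values were seen, were F8 and VKORC1, the vitamin K reductase needed for the products of F2, F7, F10, PROC and PROS1. VKORC1 stood at 533 TPM with JIB-04 and 210 TPM with DMSO. The 1 lower gene was CPB2, a carboxypeptidase that slows fibrinolysis, at 19.9 TPM with JIB-04 and 48.0 TPM with DMSO, a log2 ratio of -1.23, and TFPI2, a Kunitz inhibitor, stood at 34.7 TPM with JIB-04 and 58.2 TPM with DMSO.

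Of 29 other secreted liver proteins 18 were described, with a median log2 ratio of -0.12. Of these, 1 was at least 2-fold higher, where 5.99% of all described genes were, and 0 were lower, where 6.88% were. The 1 was IGFBP1, which binds insulin-like growth factors, at 837 TPM with JIB-04 and 403 TPM with DMSO, a log2 ratio of 1.05 (1.01 to 1.09). CRP, the acute-phase pentraxin, stood at 23.9 TPM with JIB-04 and 16.1 TPM with DMSO. SAA4 stood at 7.50 TPM with JIB-04 and 12.3 TPM with DMSO, and FGL1, a fibrinogen-like secreted protein, at 16.1 TPM with JIB-04 and 22.2 TPM with DMSO. Whether these lists differ from the 47 genes or from all described genes was not tested.

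**Figure D5:**
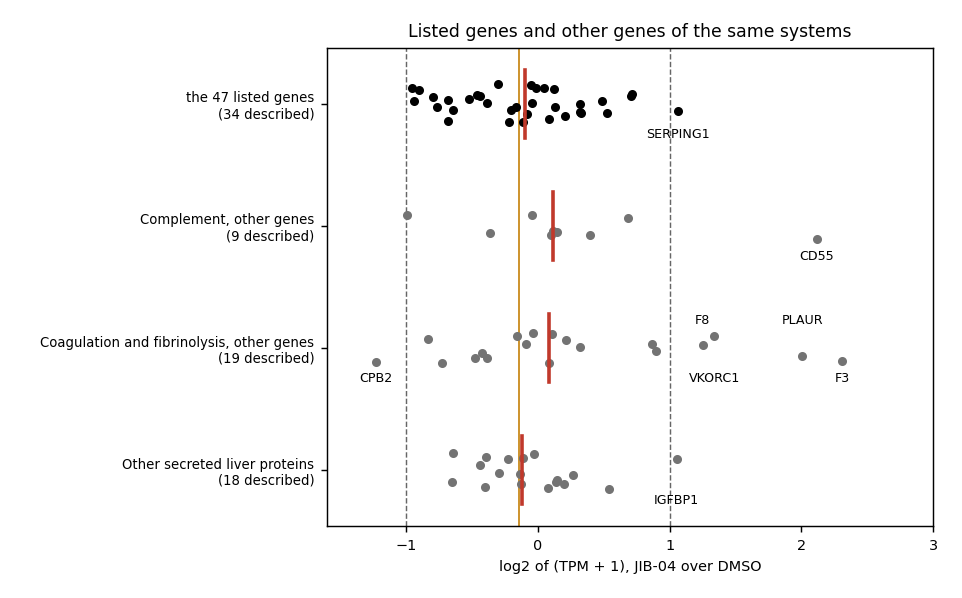
Log2 ratio of TPM + 1, JIB-04 over DMSO, of the described genes of 4 lists, with a red bar at each list's median, an ochre line at the median of all genes and dashed lines at 2-fold. SERPING1 is the 1 point of the 47 listed genes past 2-fold, beside CD55 in complement, 4 higher and 1 lower gene in coagulation and fibrinolysis, and IGFBP1 among other secreted proteins; points within 0.15 below 0 lie above 0 after centering on the median of well expressed genes.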

How the data were processed

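RNA sequencing gave 2 libraries of PLC/PRF/5 cells, 1 per condition. The authors deposited coverage, FPKM and TPM of each annotated RefSeq transcript from StringTie 1.3.3b on hg19. The submitters' processing notes also name Trimmomatic 0.32, FastQC 0.11.5, HISAT2 2.0.5 and Bowtie2 2.2.6, and the file headers show a strand setting. No column of sample values was left unused (0). Of 27685 gene identifiers, 27559 had a symbol in RefSeq (GRCh38.p14, used for names and promoters only). TPM was summed per gene, with a filter of 1 TPM in either library and a pseudocount of 1.

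Coverage was turned into fragments by multiplying it with transcript length and dividing by 202 bases, the value that occurred most often among weakly covered genes. This is approximate, since 31.4% of 1689 such genes with JIB-04 and 32.2% of 1632 with DMSO lay within 2 bases of a multiple. The JIB-04 library is the shallower one. Genes with a mean of at least 5 TPM were given with their interval, and of each other list up to 2 with the highest and 2 with the lowest ratio. The genes and lists were chosen with earlier results of these data known, and 1 gene was left out of the other lists and is not reported here. As alternatives, pseudocounts of 0.1 and 5, filters of 0 and 5 TPM, FPKM, centering on genes with 10 TPM in both libraries, thresholds of 1.5-fold and 3-fold, the most abundant transcript, leaving out ORM1 and ORM2, and estimated fragments over the library total were tried. No gene of the 47 shared exonic bases on its strand with another gene. The log2 ratio and the counting interval were tested on simulated fragments, and the other steps were not. Python 3.11.15, numpy 2.4.6, pandas 2.3.3, SciPy 1.17.1 and matplotlib 3.10.9 were used.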

Additional observations from a re-analysis of the deposited data

How the results depend on the processing

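The number of plasma protein genes past the threshold moved with several settings. With a pseudocount of 0.1, 2 were at least 2-fold higher (SERPING1 and SERPIND1) and 3 at least 2-fold lower (ALB, HPX and F7), where 8.03% and 9.94% of all genes were. With the most abundant transcript of each gene, 3 were higher (RBP4, FETUB and SERPING1) and 3 lower (C5, F7 and PROS1), where 7.49% and 8.89% of all genes were. At 1.5-fold, 3 were higher and 8 lower, where 12.8% and 21.0% of all genes were, and at 3-fold 0 were higher. With estimated fragments over the total of the library, an alternative chosen after seeing the data, 1 was lower (C5), where 6.52% of all genes were. The other settings gave 1 higher and 0 lower. The median log2 ratio ran from -0.12 to 0.05 and was above 0 only after centering on well expressed genes. SERPING1 ran from 1.03 to 1.21. Of the 24 genes with a mean of at least 5 TPM, 4 turned sign after centering (A1BG, VTN, F12 and FGA) and 1 with the most abundant transcript (A2M). With that transcript 8 of the 24 left their counting interval, among them SERPINF2 at -0.08, A2M at 0.64, RBP4 at 1.13 and PROS1 at -2.39. Such values rest on the estimated transcript shares. No paired analysis was possible because each condition had 1 library. Depth limits the weak genes most: HPX rested on 15 fragments with JIB-04 and 51 with DMSO.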
